A study of Homo sapiens with 6 samples.

Results

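RNA polymerase III makes tRNAs, 5S ribosomal RNA and other short RNAs, and RNA polymerase I makes the large ribosomal RNA precursor. The mRNAs of 35 genes that encode their subunits, general factors and close RNA-binding partners are described here, out of 20289 genes in the table. The genes were listed by symbol, and each symbol matched 1 Ensembl identifier: 24 genes form the polymerase III set and 11 the polymerase I set. POLR1C and POLR1D are subunits of both enzymes and were counted with polymerase I. TBP serves both and was counted with polymerase III. The cells were RKO, an established human colorectal cancer line, carrying either a control short hairpin RNA (shControl, 3 libraries) or a hairpin against TRMT6 (shTRMT6, 3 libraries). The labels call the shControl cells WT and name no other treatment, and the study's title ties TRMT6 to the methylation of tRNA. How many hairpins or clones were used, and whether libraries of a group came from separate cultures, was not given in the sources used here, so that the p-values reflect library-to-library spread alone, possibly only technical.

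As background, polymerase III does not find its promoters alone. At tRNA genes TFIIIC reads the A and B boxes inside the gene and places TFIIIB, which recruits the enzyme. TFIIIA adds the step that is needed at 5S genes, and small nuclear RNA genes of the U6 kind use a TFIIIB with BRF2 in place of BRF1. MAF1 represses the enzyme when nutrients are short. Polymerase I is brought to ribosomal DNA by SL1, which holds TBP and the TAF1 proteins, with UBTF on the DNA and RRN3 on the enzyme. Output of both enzymes rises with growth and is raised by MYC and mTOR and lowered by the RB family.

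TRMT6, the target of the hairpin, read 14.43, 17.96 and 16.85 FPKM (fragments normalised for gene length and library depth) in shControl and 1.58, 1.73 and 1.09 in shTRMT6, 11.2-fold lower in the mean (log2 fold change -2.82, SE 0.13, limma adjusted p = 4.33e-08). The FPKM table holds no counts; steps between low values put the depth at roughly 17900000 to 28300000 fragments a library, an estimate that whole multiples could shift. Keratins KRT8 and KRT18 and the intestinal factor CDX2 were present in all 6 libraries, whereas CDH1, VIL1, KRT19 and CDX1 were listed at 0 in all of them. The leukocyte markers PTPRC and CD3E read at most 0.02 FPKM. Values moved with transcript GC content differently in different libraries. Per 10 points of GC, log2 values deviated from the 6-library mean by 0.22, -0.005 and 0.03 in shControl replicates 1 to 3. In shTRMT6 replicates 1 to 3 the deviation was -0.07, -0.15 and -0.02, below every control library, so this trend also differed between the groups. Each result below was therefore also computed with that trend removed (GC correction). FPKM is a share of each library, so a higher or lower value cannot be read as a change in the amount of that mRNA per cell. Nor can a change in every cell be told from a change in some of the cells.

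All 35 genes were measured in every library and all 35 passed the filter of a mean of at least 1 FPKM. Under limma, a linear model fitted to log2(FPKM + 1) of all 10592 genes tested and adjusted over all of them, 13 of the 35 were higher and 3 lower in shTRMT6 at an adjusted p under 0.05. That is 45.7% of the members, against 35.4% of all genes tested. In the higher direction it is 37.1% of the members against 19.3% of all genes, and in the lower direction 8.57% against 16.1%. After the GC correction 9 members were higher and 3 lower, where 39.1% of all genes were called, 19.7% higher and 19.4% lower. With the replicate block it was 16 and 6 (background 46.8%), and with block and GC correction together 14 and 5 (background 49.7%, with 24.8% higher and 24.9% lower). The groups did not overlap for 26 members (18 higher and 8 lower), or 74.3%, against 48.3% of all genes. The changes were small: log2 fold changes ran from -0.44 to 0.86, and no member changed by 2-fold. The same 7 calls (GTF3A, GTF3C3, GTF3C6, SSB, POLR1B and RRN3 higher, POLR3E lower) were made in all 14 alternative analyses.

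**Figure D1:**
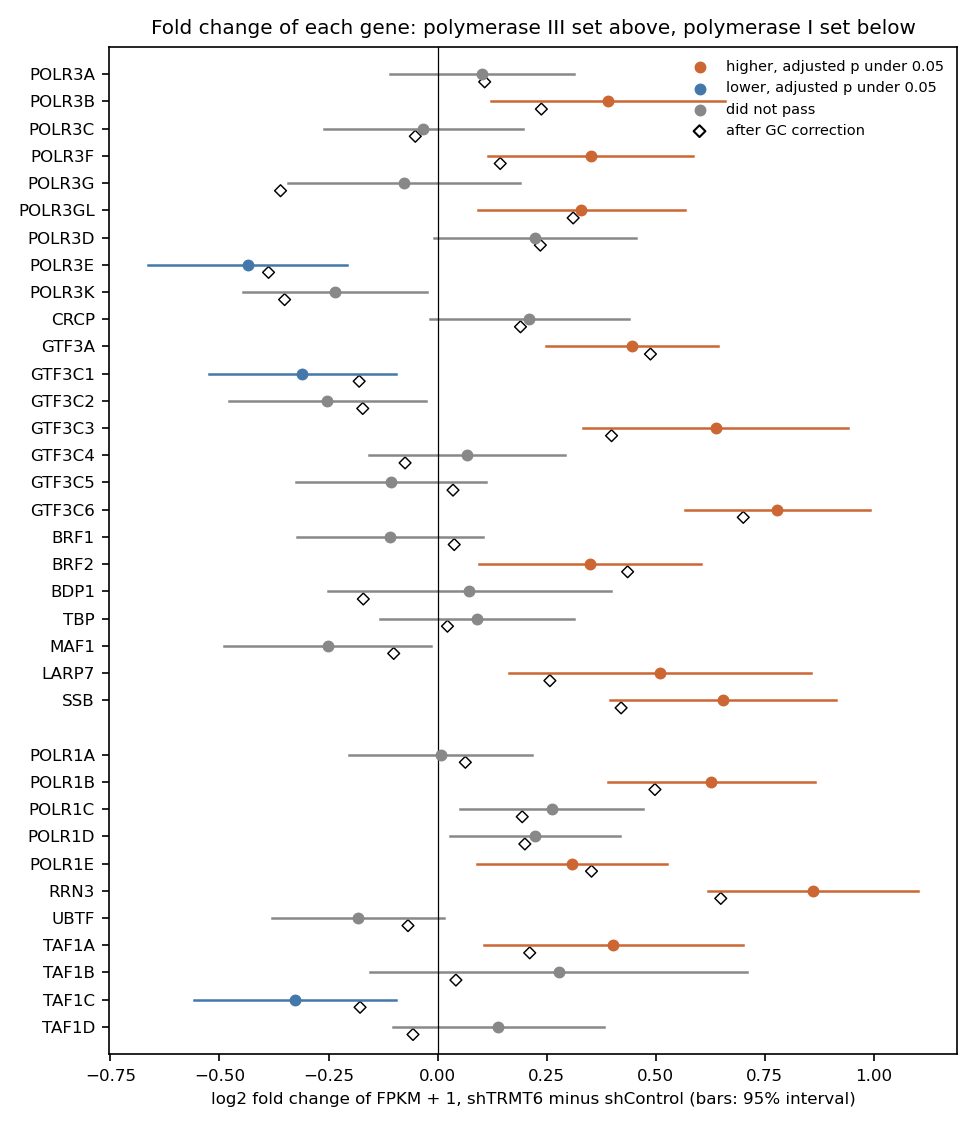
Log2 fold change of FPKM + 1 (shTRMT6 minus shControl, 3 libraries each) for the 24 polymerase III genes above and the 11 polymerase I genes below, with 95% intervals from limma; orange points were higher and blue points lower at an adjusted p under 0.05, and open diamonds are the values after the GC correction. RRN3 and GTF3C6 lie farthest to the right, at 0.86 and 0.78, and POLR3E farthest to the left, at -0.44; POLR3G moves left by the correction, from -0.08 to -0.36.

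Among the 10 polymerase III subunits in the list, 3 rose, 1 fell and 6 did not pass the test. That is 30% higher and 10% lower, against 19.3% and 16.1% of all genes tested. After the GC correction 1 rose and 3 fell, where 19.7% of all genes were higher and 19.4% lower. POLR3A and POLR3B, the pair of large subunits that form the active site, differed in level. POLR3A read 15.93, 15.77 and 16.61 FPKM in shControl and 17.57, 17.87 and 16.64 in shTRMT6. POLR3B read 2.34, 2.78 and 3.03 FPKM in shControl and 3.81, 3.65 and 4.13 in shTRMT6, and in both genes every shTRMT6 library lay above every control library, in POLR3A by a narrow margin. POLR3B rose 1.42-fold (log2 fold change 0.39, SE 0.12, limma adjusted p = 0.0264), whereas the value for POLR3A was 0.10 (SE 0.10, limma adjusted p = 0.441). The POLR3B call ended with the GC correction (0.24, adjusted p = 0.0821, and 0.0595 when blocked too), with no low-value filter (0.0509), and without shControl replicate 1 or any 1 of the 3 shTRMT6 libraries (0.0519 to 0.0764).

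POLR3C, POLR3F and either POLR3G or POLR3GL form the trimer that helps to open the promoter. POLR3F read 7.51, 8.73 and 7.98 FPKM in shControl and 10.7, 11.1 and 9.94 in shTRMT6. The groups were apart, and POLR3F rose 1.31-fold (log2 fold change 0.35, SE 0.11, limma adjusted p = 0.0243). Its call ended with the GC correction (0.14, adjusted p = 0.146, and 0.136 with the replicate block) and without shControl replicate 3, shTRMT6 replicate 1 or shTRMT6 replicate 2 (adjusted p from 0.0725 to 0.0984). POLR3C averaged 14.1 ± 0.568 FPKM in shControl and 13.8 ± 1.17 in shTRMT6 (SD, n = 3 each), with overlapping groups.

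POLR3G and POLR3GL encode alternative forms of 1 subunit: POLR3G is the form known from stem cells and many tumours, and POLR3GL the form of most adult tissues. POLR3GL read 13.92, 13.53 and 12.96 FPKM in shControl and 19.1, 17.4 and 15.2 in shTRMT6, and rose 1.28-fold (log2 fold change 0.33, SE 0.11, limma adjusted p = 0.0331; 0.31 and 0.0203 after the GC correction). POLR3G read 12.1, 15.0 and 14.1 FPKM in shControl and 12.4, 15.0 and 11.6 in shTRMT6, with groups that overlap (-0.08, SE 0.12, adjusted p = 0.662). POLR3G has the lowest transcript GC content of all members, 34.3%, and after the GC correction its value was -0.36 (adjusted p = 0.00482; blocked, 0.00218), a pass in the lower direction. The POLR3GL call ended with no low-value filter (adjusted p = 0.0602) and without shControl replicate 2 or 3 or shTRMT6 replicate 1 or 2 (0.0654 to 0.173). The exons of AC243547.3, on the same strand, cover 21.2% of the exonic bases of POLR3GL, so its value, and a ratio that uses it, is less certain.

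Within a library the ratio of POLR3G to POLR3GL does not depend on scaling. It was 0.868, 1.11 and 1.09 in the shControl libraries and 0.647, 0.863 and 0.762 in the shTRMT6 libraries, so the highest shTRMT6 value lay just under the lowest control value. The mean log2 ratio was 0.022 ± 0.196 in shControl and -0.41 ± 0.208 in shTRMT6 (SD, n = 3 each), a difference of -0.43, or 1.35-fold. An exact two-sided permutation test gave p = 0.1, and groups of 3 cannot give a smaller one. With the GC correction the difference was -0.67. The ratio was lower in shTRMT6 in all 3 pairs of libraries with the same replicate number. An exact two-sided sign-flip test on these pairs gave p = 0.25, the smallest that 3 pairs can give.

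**Figure D2:**
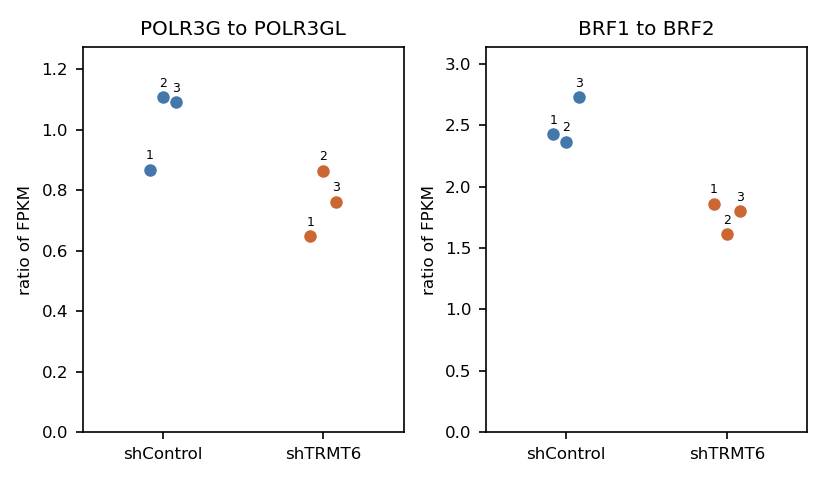
Ratio of FPKM of POLR3G to POLR3GL (left) and of BRF1 to BRF2 (right) in each library, from 0; the small numbers are replicate numbers. The POLR3G to POLR3GL ratio runs from 0.868 to 1.11 in shControl and from 0.647 to 0.863 in shTRMT6, and the BRF1 to BRF2 ratio from 2.36 to 2.73 and from 1.61 to 1.86.

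POLR3D and POLR3E form the pair that sits beside POLR3K and acts in termination and reinitiation, and these 3 genes did not move together. POLR3E (ENSG00000058600; chromosome 16, bases 22297375 to 22335103, plus strand) read 15.4, 16.4 and 15.2 FPKM in shControl and 11.2, 10.4 and 12.4 in shTRMT6. All 3 shTRMT6 libraries lay below all 3 controls, and POLR3E was 1.38-fold lower (log2 fold change -0.44, SE 0.11, limma adjusted p = 0.00698). This call was made in all 14 alternatives, with log2 fold changes from -0.49 to -0.38. POLR3D, its partner, read 30.1, 28.7 and 24.6 FPKM in shControl and 35.5, 31.5 and 30.8 in shTRMT6. The difference did not pass (0.22, SE 0.11, adjusted p = 0.12), but did with the replicate block (0.0412, and 0.00915 with the GC correction as well). POLR3K, which helps to cleave RNA in a stalled enzyme, read 22.8, 26.0 and 23.8 FPKM in shControl and 20.3, 20.4 and 20.4 in shTRMT6. Its groups did not overlap, and the value did not pass in the fit without a block (-0.24, SE 0.10, adjusted p = 0.0756). With the replicate block it passed as lower (0.0407), as it did with the GC correction (-0.35, 0.00342), with both (0.00105), with median-of-ratios scaling (0.0397) and without shControl replicate 1 (0.0351). CRCP, of the stalk, averaged 16.5 ± 0.44 and 19.4 ± 1.94 FPKM (SD, n = 3 each) with an adjusted p of 0.138, and of 0.0383 with block and GC correction together.

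The factors that read polymerase III promoters moved in different directions. GTF3A, which encodes TFIIIA, rose and so did GTF3C3 and GTF3C6 of TFIIIC, while GTF3C1 fell. GTF3A (ENSG00000122034; chromosome 13, bases 27424544 to 27435823, plus strand) read 60.3, 64.9 and 61.5 FPKM in shControl and 89.8, 85.8 and 79.8 in shTRMT6. It rose 1.37-fold (log2 fold change 0.44, SE 0.09, limma adjusted p = 0.00269), and the value after the GC correction was 0.49. With a transcript GC content of 51.0% it lies on the GC-rich side of the members.

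GTF3C6 (ENSG00000155115; chromosome 6, bases 110958560 to 110967890, plus strand), the smallest TFIIIC subunit, had the largest rise in the polymerase III set. It read 32.3, 32.7 and 32.1 FPKM in shControl and 62.0, 55.9 and 51.4 in shTRMT6. The control libraries were within 1 FPKM of each other and the lowest shTRMT6 library was well above them. The rise was 1.74-fold (log2 fold change 0.78, SE 0.10, limma adjusted p = 0.000137; 0.70 after the GC correction). GTF3C3 (ENSG00000119041; chromosome 2, bases 196763032 to 196799725, minus strand) read 5.59, 8.37 and 7.62 FPKM in shControl and 10.8, 13.2 and 10.9 in shTRMT6, a 1.62-fold rise (0.64, SE 0.14, adjusted p = 0.00406; 0.40 after the GC correction).

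GTF3C1, the large TFIIIC subunit that contacts the B box, read 58.7, 58.8 and 63.9 FPKM in shControl and 46.0, 45.8 and 54.3 in shTRMT6. It fell 1.24-fold (log2 fold change -0.31, SE 0.10, limma adjusted p = 0.028), with no overlap between groups. The call ended with the GC correction (-0.18, adjusted p = 0.123), though not with the replicate block added to it (0.0157), and without shControl replicate 2 or 3 or shTRMT6 replicate 1 or 2 (0.0524 to 0.126). GTF3C2 averaged 38.6 ± 3.63 FPKM in shControl and 32.2 ± 2.51 in shTRMT6 (SD, n = 3 each; -0.25, adjusted p = 0.0752); it passed as lower with the replicate block (0.0206, and 0.0492 with the GC correction). Other genes share 25.3% of the exonic bases of GTF3C2 on the opposite strand, and how the authors' counting used strand was not given in the sources used here. GTF3C4 and GTF3C5 did not pass, with log2 fold changes of 0.07 and -0.11, and both changed sign with the GC correction (-0.07 and 0.04).

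In TFIIIB, 1 of 4 genes passed (25%, against 35.4% of all genes tested). BRF2 read 6.99, 7.14 and 5.76 FPKM in shControl and 8.12, 9.39 and 8.59 in shTRMT6, and rose 1.31-fold (log2 fold change 0.35, SE 0.12, limma adjusted p = 0.0351; 0.44 and 0.00703 after the GC correction). The exons of ADGRA2, on the opposite strand, cover 59.0% of the exonic bases of BRF2, so its value is uncertain. The BRF2 call ended with no low-value filter (adjusted p = 0.0751) and without shControl replicate 3 or any 1 of the 3 shTRMT6 libraries (0.0649 to 0.167). BRF1, the form used at tRNA and 5S genes, read 16.96, 16.87 and 15.7 FPKM in shControl and 15.1, 15.1 and 15.5 in shTRMT6 (-0.11, SE 0.10, adjusted p = 0.411). The BRF1 to BRF2 ratio was 2.43, 2.36 and 2.73 in shControl and 1.86, 1.61 and 1.80 in shTRMT6. Its log2 value was lower by 0.51 in the mean, 1.43-fold, without overlap (exact two-sided permutation p = 0.1, the smallest possible). With libraries paired by replicate number, an exact two-sided sign-flip test gave p = 0.25, also the smallest possible. TBP averaged 17.2 ± 1.48 and 18.3 ± 0.415 FPKM (SD, n = 3 each), and BDP1, the third TFIIIB component, 1.95 ± 0.531 and 2.07 ± 0.276; neither passed (adjusted p = 0.521 and 0.735).

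MAF1, the repressor, read 188, 149 and 139 FPKM in shControl and 133, 132 and 131 in shTRMT6. The control spread came mainly from replicate 1. The difference did not pass (log2 fold change -0.25, SE 0.11, limma adjusted p = 0.0899), passed as lower with the replicate block (0.011) and without shControl replicate 3 (0.0383), and was -0.10 after the GC correction (0.325, and 0.166 when blocked). Without shControl replicate 1 it was -0.12 (adjusted p = 0.228). Its transcript has the highest GC content of all members, 62.5%.

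The RNA-binding partners rose. SSB, the La protein that binds the 3′ uridines of new polymerase III transcripts (ENSG00000138385; chromosome 2, bases 169791933 to 169812064, plus strand), read 45.2, 57.1 and 51.2 FPKM in shControl and 78.2, 94.6 and 71.1 in shTRMT6. It rose 1.59-fold (log2 fold change 0.65, SE 0.12, limma adjusted p = 0.00139; 0.42 and 0.00267 after the GC correction). LARP7, a La-related protein of the 7SK particle, read 5.43, 8.26 and 7.22 FPKM in shControl and 9.80, 12.9 and 8.42 in shTRMT6. The lowest shTRMT6 library was close to the highest control (1.49-fold; 0.51, SE 0.16, adjusted p = 0.0256). The LARP7 call ended with the GC correction (0.26, adjusted p = 0.0783; 0.0262 with the replicate block as well), with no low-value filter (0.11), and without shControl replicate 1 or shTRMT6 replicate 1 or 2 (0.0537 to 0.121).

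Of the polymerase I subunits, POLR1B and POLR1E rose and POLR1A did not move with them. POLR1A, the largest subunit, read 17.2, 16.4 and 16.8 FPKM in shControl and 17.2, 16.9 and 16.5 in shTRMT6 (log2 fold change 0.01, 95% interval -0.20 to 0.22). POLR1B (ENSG00000125630; chromosome 2, bases 112541915 to 112577150, plus strand), the other active-site subunit, read 25.8, 32.0 and 30.4 FPKM in shControl and 49.9, 46.3 and 41.5 in shTRMT6. POLR1B rose 1.56-fold (0.63, SE 0.11, limma adjusted p = 0.00103; 0.50 after the GC correction). In both polymerases, then, the gene of the second-largest subunit was called higher and that of the largest was not, but whether the members of a pair differ was not tested. After the GC correction this held for polymerase I alone, as the POLR3B call ended (limma adjusted p = 0.0821). POLR1E read 29.9, 32.6 and 30.6 FPKM in shControl and 40.1, 41.3 and 34.7 in shTRMT6, and rose 1.25-fold (0.31, SE 0.10, adjusted p = 0.0302; 0.35 and 0.00739 after the GC correction). Its call ended without shControl replicate 3 or shTRMT6 replicate 1 or 2 (0.0801 to 0.135).

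POLR1C and POLR1D, the pair that only polymerases I and III share, were higher in each shTRMT6 library than in any control library, by amounts that did not pass in the fit without a block. POLR1C read 52.0, 45.3 and 43.5 FPKM in shControl and 56.2, 57.9 and 54.8 in shTRMT6 (log2 fold change 0.26, SE 0.10, limma adjusted p = 0.0522). POLR1D read 132, 130.0 and 121 FPKM in shControl and 147, 159 and 141 in shTRMT6 (1.17-fold; 0.22, SE 0.09, adjusted p = 0.0703). With the replicate block both passed as higher (adjusted p = 0.0119 and 0.0168; 0.0468 and 0.0119 with the GC correction as well), as they did without shControl replicate 1 (0.0111 and 0.0446). With a minimum mean of 5 FPKM POLR1C lay at the threshold (adjusted p = 0.04999).

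RRN3, the factor that makes polymerase I competent to start, had the largest change of the 35 genes before the GC correction. After the correction GTF3C6 lay above it, at 0.70. RRN3 (ENSG00000085721; chromosome 16, bases 15060022 to 15094317, minus strand) read 17.9, 22.8 and 20.5 FPKM in shControl and 38.8, 40.3 and 34.3 in shTRMT6, a 1.85-fold rise (log2 fold change 0.86, SE 0.11, limma adjusted p = 0.000163; 0.65 and 0.000163 after the GC correction). Of its 75-base windows 21.3% also occur in other genes, mainly its pseudogenes RRN3P1 and RRN3P2, so part of its fragments cannot be assigned with certainty. UBTF, which bends and marks active ribosomal DNA, read 63.6, 60.5 and 63.7 FPKM in shControl and 55.6, 58.1 and 51.7 in shTRMT6; the groups were apart but the value did not pass (-0.18, SE 0.09, adjusted p = 0.139).

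The TAF1 genes of SL1 did not share a direction. TAF1A read 2.24, 3.19 and 2.37 FPKM in shControl and 3.26, 4.15 and 3.82 in shTRMT6, and rose 1.44-fold (log2 fold change 0.40, SE 0.14, limma adjusted p = 0.0369). TAF1C read 11.6, 11.7 and 12.6 FPKM in shControl and 9.39, 8.62 and 10.04 in shTRMT6, and was 1.28-fold lower (-0.33, SE 0.11, adjusted p = 0.0303). Both calls ended with the GC correction (0.21 and -0.18; adjusted p = 0.145 and 0.139), and TAF1A rests on few fragments, an estimated 91 to 164 a library. The TAF1A call also ended with no low-value filter (0.0864) and without shControl replicate 1 or 3 or shTRMT6 replicate 2 or 3 (0.0855 to 0.134), and that of TAF1C without shControl replicate 2 or 3 or shTRMT6 replicate 1 or 2 (0.0564 to 0.135). With block and GC correction together neither passed (0.124 and 0.0778). TAF1B and TAF1D did not pass; TAF1B was the most variable member, with replicate 2 the highest library of each group (6.97 and 9.46 FPKM, against 4.09 to 5.5 in the other 4).

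**Figure D3:**
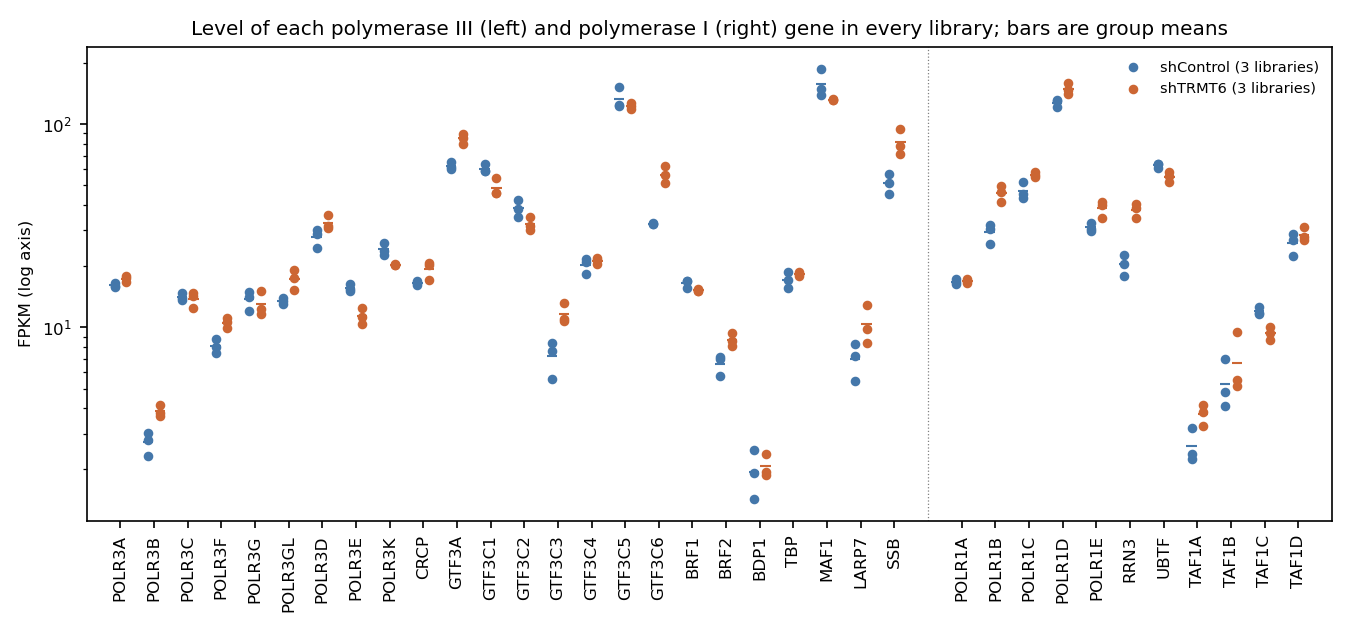
FPKM (log axis) of each gene in every library, shControl in blue and shTRMT6 in orange, with short bars for group means; polymerase III genes are on the left and polymerase I genes on the right of the dotted line. BDP1 is the lowest gene and MAF1 the highest in shControl, at 1.95 and 158 FPKM in the mean.

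Set against each other, the polymerase III set had 9 of 24 genes higher and 2 lower (45.8% called) and the polymerase I set 4 of 11 higher and 1 lower (45.5%), against 35.4% of all genes tested (19.3% higher and 16.1% lower). Median log2 fold changes were 0.096 (polymerase III) and 0.26 (polymerase I), against 0.024 over all genes tested. After the GC correction they were 0.073 and 0.19, against 0.003. The polymerase I median of 0.26 is the value of POLR1C, which polymerase III shares. Positive values made up 15 of 24 and 9 of 11, against 52.9% of all genes. Per library, the median difference from the control mean was 0.047 to 0.16 for polymerase III genes and 0.15 to 0.315 for polymerase I genes in shTRMT6. The difference between the sets was not tested, since genes are not replicates. Without LARP7 and SSB, which act on the RNA and not on the promoter, the polymerase III set had 7 of 22 higher and 2 lower. The GC correction left 6 higher and 3 lower in the polymerase III set, of which 6 and 1 were also called before it, and 3 higher and none lower in the polymerase I set, where it called 19.7% of all genes higher and 19.4% lower. With the replicate block 10 polymerase III genes were higher and 5 lower, and 6 polymerase I genes were higher and 1 lower, where the same fit called 25.5% of all genes higher and 21.3% lower. With 1 library left out, the count of higher polymerase III genes was lowest without shTRMT6 replicate 1 or 2 (4 each). Calls over all genes fell in these fits too. Without shTRMT6 replicate 1 or 2, 1290 of 10591 and 1284 of 10587 genes were higher, against 2042 of 10592 with all libraries.

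Levels within a complex were uneven. FPKM is scaled for gene length, but effects of GC content or annotation on the levels of different genes remain in it. The GC correction does not remove them, since it acts on each library's deviation from the mean. Transcript GC content was 39.4% for GTF3C3 and 59.06% for GTF3C5, and 44.04% for POLR3B and 49.65% for POLR3D. Its part in these levels was not tested. In shControl the TFIIIC genes ran from GTF3C3 at 7.19 FPKM to GTF3C5 at 133, and the polymerase III subunits from POLR3B at 2.72 to POLR3D at 27.8. Outside these, the shared subunit POLR1D stood at 128 FPKM and the repressor MAF1 at 158. GTF3C6 and GTF3A rose from levels of 32.4 and 62.2 FPKM.

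Fold changes of the members fell with transcript GC content. Across the 35 genes, which share the same 6 libraries, Pearson r between log2 fold change and GC content was -0.57, against -0.39 across all genes tested; without shControl replicate 1 it was -0.44 and after the GC correction -0.19. Of the 17 members below the median GC content 9 were higher and none lower, and of the 17 above it 4 were higher and 3 lower. Split at the same GC content, 30.1% of all genes tested were higher and 5.91% lower below it, and 9.13% higher and 25.6% lower above it. The part that GC content has in the individual changes was not tested beyond the corrected values given with each gene.

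**Figure D4:**
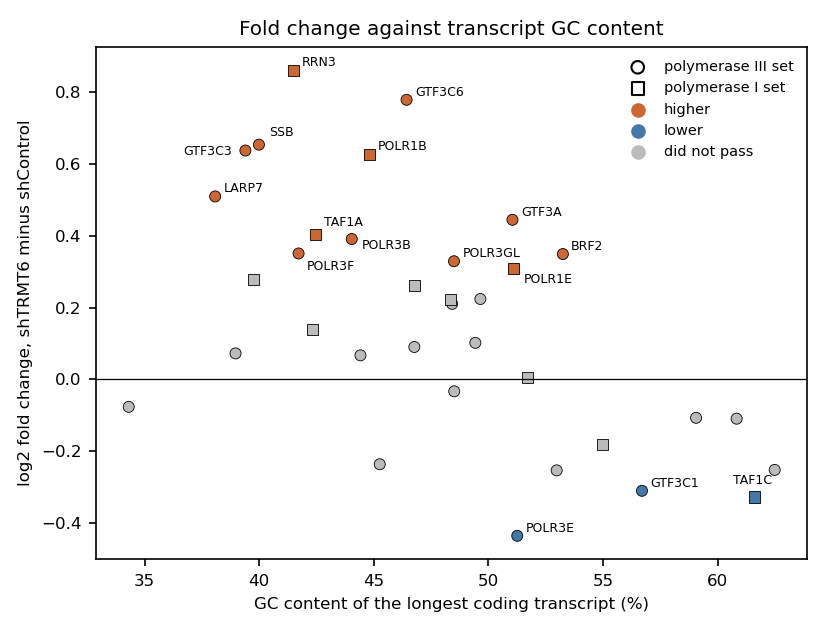
Log2 fold change of each member (shTRMT6 minus shControl) against the GC content of its longest coding transcript in percent; circles are polymerase III and squares polymerase I genes, orange were called higher and blue lower. Genes called higher reach from 38.1% (LARP7) to 53.3% GC (BRF2), and the 3 called lower lie at 51.3% (POLR3E) and above.

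The start regions of 4 members are shown because they belong to the strongest riser of each set, GTF3C6 and RRN3, and to POLR3E and TAF1C, which were called lower and each hold a B box sequence. They are RefSeq windows on GRCh38.p14, from 250 bases before to 50 after an annotated start, and 29 of the 35 members had such a window (BRF2, CRCP, MAF1, POLR1E, POLR3D and POLR3G did not). For RRN3 the listed start that matches a GENCODE transcript was used. Capitals mark the E-box CACGTG, the word CCGGAAG bound by ETS factors, and the B box (GGTTCGA, any base, then TCC), each on either strand. GTF3C6 lies at chr6:110958456-110958755 (plus strand), RRN3 at chr16:15094223-15094522 (minus), POLR3E at chr16:22297159-22297458 (plus) and TAF1C at chr16:84187008-84187307 (minus).
GTF3C6: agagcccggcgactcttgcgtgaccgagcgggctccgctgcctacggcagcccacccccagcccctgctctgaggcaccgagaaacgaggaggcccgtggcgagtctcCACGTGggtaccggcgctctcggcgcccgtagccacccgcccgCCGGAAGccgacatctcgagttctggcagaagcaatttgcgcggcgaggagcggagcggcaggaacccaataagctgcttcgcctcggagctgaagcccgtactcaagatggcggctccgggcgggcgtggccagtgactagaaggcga
RRN3: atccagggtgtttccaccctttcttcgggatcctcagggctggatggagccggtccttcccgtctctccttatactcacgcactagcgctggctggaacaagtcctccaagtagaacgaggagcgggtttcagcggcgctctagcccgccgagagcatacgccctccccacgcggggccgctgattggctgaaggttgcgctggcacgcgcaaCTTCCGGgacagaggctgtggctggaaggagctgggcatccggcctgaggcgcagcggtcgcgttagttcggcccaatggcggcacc
POLR3E: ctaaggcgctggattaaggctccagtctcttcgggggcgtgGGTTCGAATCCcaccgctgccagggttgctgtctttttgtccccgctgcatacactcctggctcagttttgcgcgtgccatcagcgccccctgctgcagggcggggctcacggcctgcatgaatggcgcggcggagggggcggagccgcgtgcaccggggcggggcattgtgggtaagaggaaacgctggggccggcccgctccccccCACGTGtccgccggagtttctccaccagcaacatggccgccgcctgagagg
TAF1C: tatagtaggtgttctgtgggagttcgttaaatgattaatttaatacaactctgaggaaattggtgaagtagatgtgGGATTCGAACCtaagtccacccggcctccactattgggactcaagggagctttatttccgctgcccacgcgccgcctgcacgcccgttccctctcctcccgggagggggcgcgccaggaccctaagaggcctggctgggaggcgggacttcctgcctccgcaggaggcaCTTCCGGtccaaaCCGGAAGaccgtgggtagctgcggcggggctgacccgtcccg

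GTF3C6 holds an E-box 142 bases and an ETS word 99 bases before its RefSeq start, and RRN3 an ETS word 37 bases before its own. POLR3E holds an E-box that begins 1 base before its RefSeq start. In GENCODE these genes begin farther upstream, at bases 110958560 (GTF3C6), 15094317 (RRN3) and 22297375 (POLR3E). These words therefore lie inside the genes as GENCODE draws them. ETS words occurred in the windows of 15 of 29 members (51.7%), against 24.8% of 8670 tested genes with a window, and E-boxes in 7 of 29 (24.1%) against 13.2%. By direction of change, ETS words were in 6 of 11 members called higher, 2 of 3 called lower and 7 of 15 that did not pass, and E-boxes in 2, 1 and 4 of them. Of other words searched on both strands, the NRF1 palindrome was in 3 members (10.3%, against 2.92%), TATAAA in 2 (6.90%, against 7.44%) and CCAAT in 15 (51.7%, against 43.8%). A match is a description of letters, not of a bound site.

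The B box, the element that TFIIIC reads inside tRNA genes, was searched after it was noticed in the POLR3E window. It occurred in the windows of 16 of the 8670 tested genes (0.185%) and in 2 of 29 members, POLR3E and TAF1C. In POLR3E it is part of a tRNA gene: RefSeq places the leucine tRNA gene TRL-AAG2-4 at bases 22297140 to 22297221 of chromosome 16, ending 188 bases before the RefSeq start of POLR3E. No RefSeq tRNA gene lies within 500 bases of the TAF1C start. Tested genes with a start within 500 bases of a tRNA gene numbered 22, of which 4 were higher and 4 lower, with a median log2 fold change of -0.020; without POLR3E it was 4 higher and 3 lower. Of all genes tested 19.3% were higher and 16.1% lower. After the GC correction 2 of the 22 were higher and 5 lower (median -0.004), where 19.7% of all genes were higher and 19.4% lower.

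Other genes of the same pathways were taken from 8 lists drawn up by name, 73 genes in all. Of these, 24 were higher and 6 lower (41.1% called, against 35.4% of all genes tested), with a median log2 fold change of 0.16; after the GC correction it was 30 and 8, where 39.1% of all genes were called. RNase P and MRP, which trim the 5′ ends of tRNAs and process ribosomal RNA, had 6 of 11 genes higher and none lower (median 0.40). That is 54.5% higher, against 19.3% of all genes tested. RPP40 rose 2.41-fold (log2 fold change 1.14, SE 0.13, limma adjusted p = 7.67e-05) and RPP38 1.47-fold. Of 13 genes for tRNA 3′ end trimming, splicing, ligation and export 2 were higher (15.4%, under the 19.3% of all genes tested) and none lower. They were RTRAF of the tRNA ligase complex (1.69-fold) and TRNT1, which adds CCA (1.68-fold).

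Of 9 further polymerase subunits 3 were higher and none lower, or 7 higher after the GC correction. For this list and those below, the shares over all genes tested were 19.3% higher and 16.1% lower. After the GC correction they were 19.7% and 19.4%, and with the replicate block 25.5% and 21.3%. POLR2K, which all 3 nuclear polymerases share, rose 1.48-fold and POLR1F of polymerase I 1.54-fold. The 7 subunits particular to polymerase II had 3 higher and 1 lower: the largest, POLR2A, fell 1.64-fold (log2 fold change -0.68, SE 0.11, limma adjusted p = 0.00064) and POLR2B, the second largest, rose 1.43-fold. Among 7 factors of small nuclear RNA promoters 3 were higher and 1 lower, with SNAPC1 (1.78-fold) and SNAPC5 (1.54-fold) higher; SNAPC4, named after its value was seen, was 1.42-fold lower. Among 6 partners of the 7SK particle HEXIM1 passed (1.38-fold higher) and 5 did not; with the replicate block 3 were higher and 1 lower.

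Nucleolar and ribosomal DNA partners had 4 of 8 genes higher and 2 lower, with NOLC1 (1.87-fold) and the termination factor TTF1 (1.52-fold) higher. Of 12 regulators 2 were higher and 2 lower (16.7% each, near the 19.3% and 16.1% of all genes tested). With the replicate block it was 4 and 2, where 25.5% of all genes were higher and 21.3% lower. RBL2, an RB family member, rose 1.49-fold (limma adjusted p = 0.00524). The 2 that fell, named after their values were seen, were MTOR (1.47-fold lower) and its partner RPTOR (1.32-fold lower), of the kinase complex that relieves repression by MAF1. MLST8, of the same complex, did not pass (log2 fold change -0.03, limma adjusted p = 0.868). RPS6KB1, of the same list, was not lower (0.33, adjusted p = 0.0812) and passed as higher with the replicate block (0.0200). MYC, also named afterwards, averaged 214 ± 4.64 FPKM in shControl and 247 ± 17.1 in shTRMT6 (SD, n = 3 each), which did not pass (0.21, adjusted p = 0.0867) except with the GC correction (0.30, 0.00597) or the replicate block (0.0231).

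**Figure D5:**
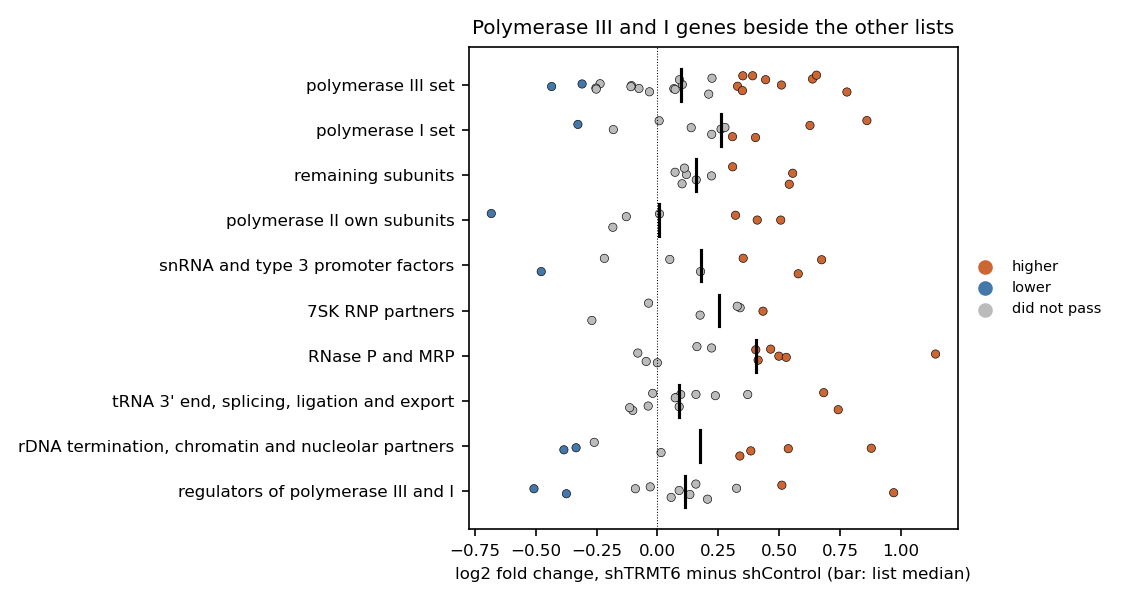
Log2 fold change (shTRMT6 minus shControl) of every gene in the polymerase III and I sets and in 8 other lists, 1 point a gene, orange called higher, blue called lower and grey not passing; black bars are list medians. The RNase P and MRP list has the highest median, 0.40, and the polymerase II list the lowest, 0.008.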

How the data were processed

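The deposited values are FPKM per gene, as the column names state, from mRNA sequencing of 3 shControl and 3 shTRMT6 RKO libraries. The column prefix NC was read as shControl, SH as shTRMT6, and the column number as the replicate number. RSEM, StringTie 1.3.1, HISAT2, Bowtie2 2.2.8 and fastp 0.18.0 are listed without roles in the submitters' processing notes. No source used here gives the genome build, annotation or strand setting. Symbols came from a gene name table (20257 of 20289 genes) and GENCODE 29 (30), and transcript GC content, coordinates (GRCh38) and gene overlaps from GENCODE 29. Promoter windows and tRNA genes came from RefSeq (GRCh38.p14).

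Members and lists were chosen with earlier results of these data known. The 10592 genes averaging 1 FPKM or more were fitted on log2(FPKM + 1) by limma 3.58.1 (R 4.3.3, trended prior), with Benjamini-Hochberg adjustment over all of them and a threshold of 0.05. Fold changes in words are ratios of mean FPKM; log2 fold changes are on the log2(FPKM + 1) scale, which understates changes of low genes. Ratios of 2 genes were compared by exact permutation and, as pairs, by exact sign flips. Alternatives were a pseudocount of 0.1, no filter, a minimum mean of 5 FPKM, median-of-ratios scaling, GC correction (lowess of each library's deviations on GC content, span 0.3), a replicate block, the block with GC correction, a robust prior, and leaving out each library. All members were described; in the other lists, the genes named were the 2 with the largest change among those past the threshold, except where stated; some genes that this rule names are not reported here.

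Libraries with the same replicate number deviated together (correlations of deviations from group means 0.206, 0.364 and 0.17, against -0.288 to 0.0936 for other pairs). The numbers were therefore taken as pairs in the blocked fits. The main fit, with its calls and p-values, does not use the pairing, and the blocked value stands beside results it changes. The fit was tested on simulated data.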

Additional observations from a re-analysis of the deposited data

How the results depend on the processing

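With 1 library left out, polymerase III genes called higher ranged from 4 to 8 and lower from 1 to 3, and polymerase I genes called higher from 2 to 5 and lower from 0 to 1. Over all genes, the same fits called 1284 to 2073 higher and 1112 to 1724 lower, against 2042 and 1704 with all libraries. Lowest counts came without shTRMT6 replicate 1 or 2 for polymerase III higher, without those or shControl replicate 2 for polymerase III lower, and without shControl replicate 3 or shTRMT6 replicate 2 for polymerase I higher. No polymerase I gene was lower without shControl replicate 2 or 3 or shTRMT6 replicate 1 or 2. Without a filter 5 polymerase III genes were higher, where 1570 of all 15015 genes tested were. With the replicate block, alone or with the GC correction, 5 were lower; with the GC correction, alone or with the block, 0 polymerase I genes were lower. Apart from the changes printed with each gene and these counts, the replicate block changed no other call among the members. Of the 16 calls 7 held in all alternatives run, and of the 19 other members 8 passed in at least 1. No called member changed sign, and 7 uncalled ones did: with the GC correction, alone or with the block, GTF3C4 had a log2 fold change of -0.0745, GTF3C5 of 0.035, BRF1 of 0.038, BDP1 of -0.17 and TAF1D of -0.056. Without shControl replicate 1 GTF3C4 (range with 1 library left out -0.0068 to 0.117) and BDP1 (-0.059 to 0.203) were lowest; POLR3C ranged from -0.077 to 0.033 (without shTRMT6 replicate 3) and POLR1A from -0.011 (without shControl replicate 2) to 0.025. POLR1A was at -0.029 with median-of-ratios scaling and -0.0067 without shTRMT6 replicate 1. The cause was not tested. The minimum mean of 5 FPKM left out POLR3B, BDP1 and TAF1A. The POLR3G to POLR3GL and BRF1 to BRF2 ratios, on which a permutation p cannot go under 0.1, kept their sign in the 9 alternatives run on each. Over all genes the block raised calls from 3746 to 4954. The fewest fragments were estimated for TAF1A, and depth was only roughly estimated from FPKM.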
